A study of Homo sapiens with 6 samples.

Results

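The genes described here are 10 members of the bone morphogenetic protein (BMP) pathway: the ligands BMP2 and BMP4, the receptors BMPR1A and BMPR2, the signal-transducing SMAD1 and SMAD5, the inhibitory SMAD6, and the target genes ID1, ID2 and ID3. They were chosen as genes of the pathway, by symbol, and all 10 were among the 19469 genes of the count table. The cells were L3.6pl, a human metastatic pancreatic ductal adenocarcinoma line that the cell line label spells L6.6pl, grown in DMEM with 10% FBS and left without treatment. Live cells were sorted by FACS with an antibody to L1CAM, a cell adhesion molecule, into an L1high population (labelled L1CAM_POSITIVE) and an L1low population (labelled L1CAM_NEGATIVE), and mRNA of each was sequenced in 3 libraries. Both populations came from the same unmodified line, so the groups differ by the gate on surface L1CAM and by no introduced allele or agent. The labels do not say that the 3 libraries of a group came from separate cultures or sorts, so the p-values measure only the spread between these samples, which may be technical.

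In BMP signalling a secreted ligand brings together type I and type II serine/threonine kinase receptors at the cell surface. The receptors phosphorylate SMAD1, SMAD5 and SMAD9, which enter the nucleus with SMAD4 and switch on target genes, among them the ID genes and SMAD6 and SMAD7, whose products block the pathway in return. ID proteins are helix-loop-helix proteins without a DNA-binding region that hold E proteins away from DNA, and BMP signals are known in epithelial tumours for effects on growth, differentiation and cell state that depend on context.

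Sequences are shown for the 2 members that passed the test described below, ID3 and SMAD6, and for ID2, a related ID gene that did not. A known BMP-responsive element joins a GC box, GGCGCC, to a SMAD box, GTCT, with 5 bases between them, and was searched on both strands in the 5000 bases before each RefSeq start site on GRCh38. It occurred in 167 of 35116 such windows, or 0.476%, and windows of neighbouring starts can overlap. Among the 9 members with an entry in the promoter table (BMP2 had none), ID2 and ID3 had a match, at chr2:8678935-8678963 on the plus strand, 3114 bases before the RefSeq start, and at chr1:23562442-23562470 on the minus strand, 2962 bases before the start. In GENCODE the ID2 match lay in a first exon of ID2, in its 5′ UTR, and inside the span of the antisense gene ID2-AS1, while the ID3 match overlapped no annotated gene. Of the wider pathway genes searched, MSX2 and SKIL also had a match, and neither passed the test (edgeR adjusted p = 0.408 and 0.327). Capitals mark the 2 boxes.
ID2: cgcgcctGGCGCCagagaGTCTgctccgg
ID3: ccaccctGGCGCCaggctGTCTggggctg
The palindrome GTCTAGAC, which contains a SMAD box on each strand, was present in the 250 bases before a start in 64 of 34943 RefSeq promoters, or 0.183%. SMAD6 was the only member of the 9 with it, 12 bases before its start, in the window chr15:66701986-66702235 on the plus strand shown here with the palindrome in capitals.
SMAD6: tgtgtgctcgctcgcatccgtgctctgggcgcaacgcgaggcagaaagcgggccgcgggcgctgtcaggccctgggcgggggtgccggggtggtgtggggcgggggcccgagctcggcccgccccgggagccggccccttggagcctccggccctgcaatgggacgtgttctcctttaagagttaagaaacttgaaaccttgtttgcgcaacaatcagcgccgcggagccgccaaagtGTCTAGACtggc
The GC box alone was found in some of these 250-base windows of BMP4 and SMAD1, which have several starts, and in that of BMPR2. It was in 16.4% of all promoters. The shares given here count starts, while the members are counted by gene. These matches describe letters in the reference genome and no binding was measured.

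Total counts per library ran from 16334610 to 21064685. L1CAM itself, the gene behind the sort, had 69.8 to 89.6 CPM (counts scaled to library size) in the L1high libraries and 17.7 to 23.7 CPM in the L1low libraries, a log2 fold change of -1.99 (SE 0.12, adjusted p = 4.69e-06). CPM were computed from library totals adjusted by edgeR's TMM factors, and log2 fold changes are L1low minus L1high. A gene was called when edgeR's quasi-likelihood test, adjusted over all 19467 genes tested, gave it a p under 0.05. The 95% intervals are those of single genes, without adjustment. All 6 epithelial markers listed were in the table. Of 6 fibroblast and stellate markers COL3A1 and LUM were in it, and of 4 immune and endothelial markers CD68 and PECAM1 were, while the others were not analysed here. The summed epithelial level was 4232 to 4785 CPM in L1high and 4780 to 5130 CPM in L1low. In sorted bulk samples, fewer cells that express a gene and less RNA of it per cell cannot be told apart.

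ID3 was lower and SMAD6 was higher in L1low than in L1high, and the other 8 members did not pass the test. Without adjustment, 5 of the 10 had a p under 0.05, as did 23.3% of all genes. ID3 fell by 0.58 on the log2 scale, to a mean of 34.8 CPM from 52.1 CPM, and SMAD6 rose 1.63-fold, to 6.34 CPM from 3.90 CPM. The count of 2 of 10 called members, or 20%, stands beside 7.95% of all genes tested. Earlier results of these data were known when the members were chosen, so this count is a description. By direction it was 1 member higher, where 4.58% of all genes were, and 1 member lower, where 3.37% were. In 3 members, ID3, SMAD6 and BMP2, the 3 L1low and the 3 L1high libraries did not overlap, against 28.8% of all genes. The median log2 fold change of the members was 0.05, beside -0.01 for all genes.

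The members differed widely in level. Per kilobase of exon, ID1 led with a mean of 252.8 CPM per kb over the 6 libraries, which placed it at percentile 98.7 of all genes. ID3 followed at 29.0 CPM per kb, and ID1 stood 8.71 times above it. ID2 came next with 9.67 CPM per kb. By this measure the 3 ID genes held the top of the order, above every ligand, receptor and SMAD of the group. The length joined all annotated exons of a gene, so the order depends on it. In CPM without length, SMAD5 (means 38.95 in L1high and 39.6 in L1low) and BMPR2 (29.4 and 35.3) were above ID2 (21.9 and 20.9). In L1low both were also above ID3 (34.8). SMAD5 had 4.34 CPM per kb, BMPR2 2.59, BMP2 2.56, SMAD1 1.70, BMPR1A 1.44, SMAD6 0.598 and BMP4 0.402 CPM per kb, the last at percentile 5.99. The ranges over the 6 libraries overlapped between the neighbours BMPR2 and BMP2, between SMAD1 and BMPR1A, and between SMAD6 and BMP4, so these pairs were not ordered beyond their spread.

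**Figure D1:**
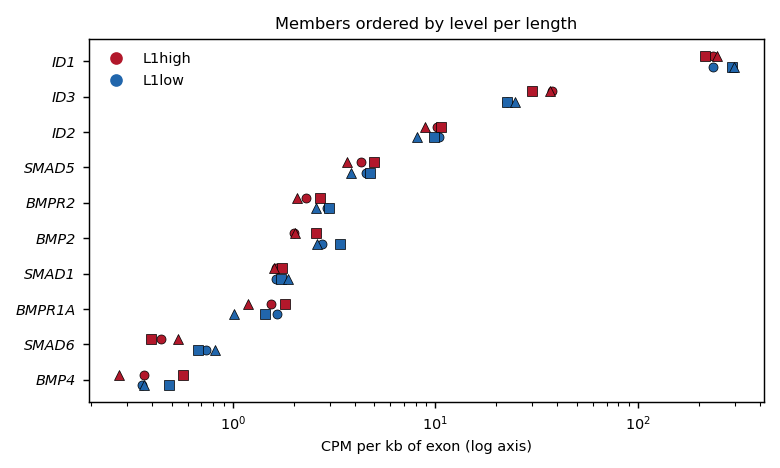
Level of the 10 members in CPM per kilobase of exon on a log axis, ordered by the mean over 6 libraries, with a point for each library. ID1 stands apart at 214.7 to 296.5 CPM per kb, and BMP4 is at the foot with 0.276 to 0.566 CPM per kb.

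Neither ligand among the members passed the test. BMP2 is a secreted ligand that binds BMPR1A and BMPR2, and the gene lies at chr20:6767686-6780246 on the plus strand. It had 7.12, 9.15 and 7.19 CPM in L1high replicates 1, 2 and 3, and 9.80, 11.9 and 9.21 CPM in L1low replicates 1, 2 and 3. The lowest L1low library lay just above the highest L1high library. Its log2 fold change of 0.40 (SE 0.15, 95% interval 0.07 to 0.72) had an adjusted p of 0.135. L1low was above L1high at each replicate number, and with the number as a block BMP2 just passed the threshold (0.40, adjusted p = 0.049992). BMP4, a close relative of BMP2 at chr14:53949736-53958761 on the minus strand, had 1.13, 1.753 and 0.853 CPM in the L1high libraries and 1.10, 1.504 and 1.13 CPM in the L1low libraries. These rest on 14 to 36 counts a library, and the groups overlapped fully. The interval of its log2 fold change, from -0.72 to 0.68, is wide enough to hold both a fall and a rise of over 1.5 times.

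The ligand list of 15 genes had 4 in the table, and edgeR called none (2 had an unadjusted p under 0.05, and DESeq2 called 0). BMP7, a ligand known for roles in kidney and epithelial cells, had the highest level per length of the list. Its level was 89.4 ± 3.78 CPM in L1high and 104.0 ± 0.80 CPM in L1low (SD, n = 3), a log2 fold change of 0.22 with an adjusted p of 0.068. The 3 L1low libraries of BMP7 all lay above the L1high ones.

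The 2 receptors among the members, BMPR2 and BMPR1A, did not pass either. BMPR2, the type II receptor at chr2:202376327-202567751 on the plus strand, had 28.7, 33.5 and 25.9 CPM in L1high replicates 1, 2 and 3, and 36.5, 37.3 and 32.1 CPM in L1low. L1low replicate 3 was below L1high replicate 2, so the groups overlapped. The log2 fold change was 0.26 (SE 0.11, 95% interval 0.03 to 0.50) with an adjusted p of 0.172. BMPR1A, a type I receptor at chr10:86756596-86932825 on the plus strand, had 15.5, 18.2 and 12 CPM in L1high and 16.7, 14.5 and 10.2 CPM in L1low. Replicate 3 was the lowest library in each population, and the groups overlapped, with a log2 fold change of -0.15 (95% interval -0.55 to 0.26) and an adjusted p of 0.678. Its level is uncertain, because the processed pseudogenes BMPR1AP1 and BMPR1AP2 were counted as genes of their own with 71 to 127 counts a library, beside 180 to 374 for BMPR1A, and reads shared by the copies may have been split between them.

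BMPR1B, the other type I receptor of the same branch, was the only receptor of 6 tested that was called, and it was higher in L1low. Of the 6, 4 had a log2 fold change above 0 and 3 had an unadjusted p under 0.05. ACVR2B, a type II receptor, had a log2 fold change of 0.38 (adjusted p = 0.121), and its libraries did not overlap. Its mean was 7.39 ± 0.56 CPM in L1high and 10.8 ± 1.01 CPM in L1low (SD, n = 3), a log2 fold change of 0.54 (SE 0.13, adjusted p = 0.0233). BMPR1B stood at 7.02 to 8.03 CPM in L1high and 9.60 to 11.4 CPM in L1low, with no overlap. The call was lost without L1high replicate 1 (adjusted p = 0.119), L1high replicate 3 (0.0514), L1low replicate 1 (0.0728) or L1low replicate 2 (0.115). Of the 6 co-receptors and decoys listed, 5 were tested and edgeR's quasi-likelihood test called none (1 had an unadjusted p under 0.05, DESeq2 called 0 and edgeR's exact test called 1, NEO1). NEO1, a co-receptor that works with the RGM proteins and was the most abundant of them per length, had 99.4 CPM in L1high and 116.2 CPM in L1low (adjusted p = 0.057).

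The signal-transducing SMADs, which carry the signal from the receptors to the nucleus, did not pass the test. SMAD1, at chr4:145481194-145559176 on the plus strand, had 11.6, 12.4 and 11.3 CPM in L1high and 11.6, 12.3 and 13.3 CPM in L1low. SMAD5, at chr5:136132845-136188747 on the plus strand, had 38.8, 44.9 and 33.1 CPM in L1high and 41.2, 43.0 and 34.6 CPM in L1low. Replicate 3 gave the lowest SMAD5 value in each population, and the groups overlapped for both genes. The intervals of the log2 fold changes ran from -0.17 to 0.32 for SMAD1 and from -0.24 to 0.28 for SMAD5, with adjusted p-values of 0.731 and 0.938. An antisense gene, SMAD1-AS1, lies inside SMAD1, and the strand setting of the counting is not given, so reads of the pair may not be separated. With edgeR none of the 4 transducers, SMAD4 and SMAD9 included, was called (1, SMAD9, had an unadjusted p under 0.05, and DESeq2 called 0). SMAD9 had a log2 fold change of 0.73 (adjusted p = 0.139) on 20 to 49 counts a library. Its libraries did not overlap, at 0.99 to 1.80 CPM in L1high and 1.89 to 2.70 CPM in L1low.

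SMAD6 was the member called higher in L1low. It encodes an inhibitory SMAD that competes with the transducers at BMP receptors, and lies at chr15:66702236-66782849 on the plus strand, downstream of the promoter printed above. Its values were 3.77, 3.36 and 4.57 CPM in L1high replicates 1, 2 and 3, and 6.28, 5.74 and 7.002 CPM in L1low. All L1low libraries were above all L1high libraries, on 69 to 80 counts a library in L1high and 103 to 124 in L1low. The means were 3.90 ± 0.62 and 6.34 ± 0.63 CPM (SD, n = 3), and the log2 fold change was 0.71 (SE 0.16, 95% interval 0.35 to 1.07, adjusted p = 0.0218). The call rests on the full set of libraries. It was lost without L1high replicate 1 (log2 fold change 0.69, adjusted p = 0.101), L1high replicate 2 (0.61, 0.0650), L1low replicate 1 (0.72, 0.0506), L1low replicate 2 (0.77, 0.0557) or L1low replicate 3 (0.64, 0.0660), and was kept without L1high replicate 3 (0.84).

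SMAD7, the inhibitory SMAD that acts on the TGF-beta and BMP branches alike and is not a member, was higher in L1low as well. It had 5.04, 3.55 and 5.18 CPM in L1high and 9.08, 8.25 and 8.75 CPM in L1low, with no overlap. The log2 fold change was 0.93 (SE 0.16, adjusted p = 0.00444), and it was called under all 14 alternatives tried. Of the list of inhibitory SMADs and their partner ubiquitin ligases, all 4 were tested and 2 were called, both higher, beside 7.95% of all genes tested. SMURF1, a ubiquitin ligase that marks SMAD1 and SMAD5 for degradation, had 72.2 CPM in L1high and 85.6 CPM in L1low and did not pass (adjusted p = 0.0511). Its libraries did not overlap, and it was called under 4 of 14 alternatives.

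ID3 was the member called lower in L1low and the only ID gene called. It lies at chr1:23557926-23559501 on the minus strand. ID3 had 56.0, 44.9 and 55.2 CPM in L1high replicates 1, 2 and 3, and 33.6, 33.6 and 37.1 CPM in L1low. The lowest L1high library, replicate 2, was still above every L1low library. The means were 52.1 ± 6.18 and 34.8 ± 2.00 CPM (SD, n = 3), and the log2 fold change was -0.58 (SE 0.10, 95% interval -0.80 to -0.36, adjusted p = 0.00411). ID3 was called under all 14 alternatives, with log2 fold changes from -0.68 to -0.52.

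ID1, the most abundant member, was not called. The gene lies at chr20:31605283-31606515 on the plus strand and had 290.5, 264.7 and 301.5 CPM in L1high and 289.6, 358.1 and 365.5 CPM in L1low. L1low replicate 1 sat among the L1high libraries, and the other two L1low libraries were above them. The log2 fold change was 0.24 (SE 0.09, 95% interval 0.04 to 0.44) with an adjusted p of 0.133, and ID1 was called only without L1low replicate 1 (0.34, adjusted p = 0.0251). ID2, at chr2:8678845-8684461 on the plus strand, had 22.5, 23.7 and 19.6 CPM in L1high and 23.0, 21.7 and 18.0 CPM in L1low. The groups of ID2 overlapped, with a log2 fold change of -0.07 (95% interval -0.33 to 0.19) and an adjusted p of 0.765.

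The ID genes were also compared within each library, where the scaling between libraries drops out. These ratios, and the SMAD ratio below, were chosen after the values of the single genes were seen. A ratio that holds a called gene is therefore no separate evidence. With 3 libraries against 3 the smallest 2-sided p that an exact permutation test can give is 0.1. ID1 had 5.18, 5.89 and 5.46 counts for each ID3 count in L1high and 8.61, 10.6 and 9.85 in L1low. The 2 groups of this ratio did not overlap, at 5.51 ± 0.36 and 9.70 ± 1.02 (SD, n = 3, exact permutation p = 0.1). The ratio of ID3 to ID2 was 2.49, 1.90 and 2.82 in L1high and 1.46, 1.55 and 2.07 in L1low, and there L1low replicate 3 overlapped with L1high replicate 2 (exact permutation p = 0.2). For ID1 over ID2 the groups overlapped as well, at 11.2 to 15.4 in L1high and 12.6 to 20.4 in L1low (exact permutation p = 0.3). The level of SMAD6 and SMAD7 together, per length, was 0.290, 0.193 and 0.352 times that of SMAD1 and SMAD5 together in L1high, and 0.490, 0.425 and 0.533 times in L1low. That ratio did not overlap between the populations, at 0.278 ± 0.080 and 0.483 ± 0.054 (SD, n = 3, exact permutation p = 0.1). SMAD6 and SMAD7 were each called higher without overlap and SMAD1 and SMAD5 were not called, so the ratio restates those values. The transducers SMAD4 and SMAD9 were left out of it.

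**Figure D2:**
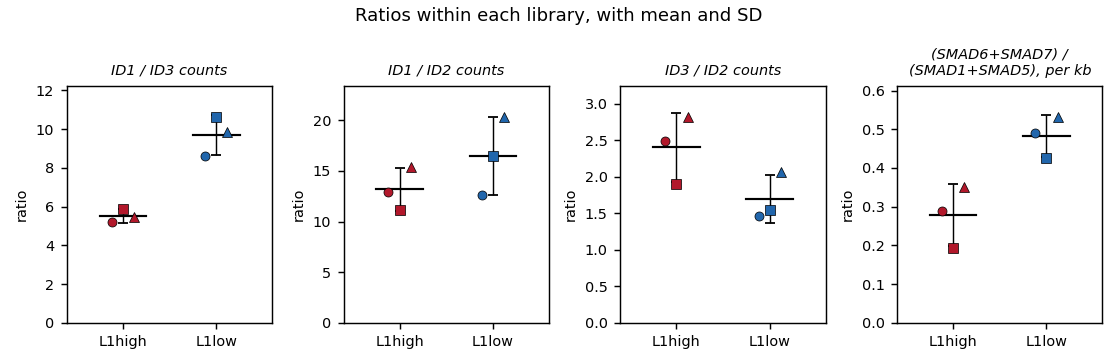
Ratios within each library for L1high and L1low, with points for libraries and bars for the mean and SD of 3 libraries. ID1 over ID3 is at 5.18 to 5.89 in L1high and 8.61 to 10.6 in L1low. The ratio of SMAD6 and SMAD7 to SMAD1 and SMAD5 is at 0.193 to 0.352 and 0.425 to 0.533.

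The wider pathway was read through lists of its ligands, receptors, transducers, antagonists, repressors, targets and E proteins. They name 76 genes with the members included, and 53 of these were tested. Of the 53, 9 were higher and 5 lower in L1low, which is 26.4% beside 7.95% of all genes tested. The median log2 fold change was 0.10, and without the members it was 0.22 over 43 genes, of which 8 were higher and 4 lower. The lists were chosen with earlier results of these data known, so their share beside that of all genes is a description. No test was made of whether the lists stand apart from other genes.

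**Figure D3:**
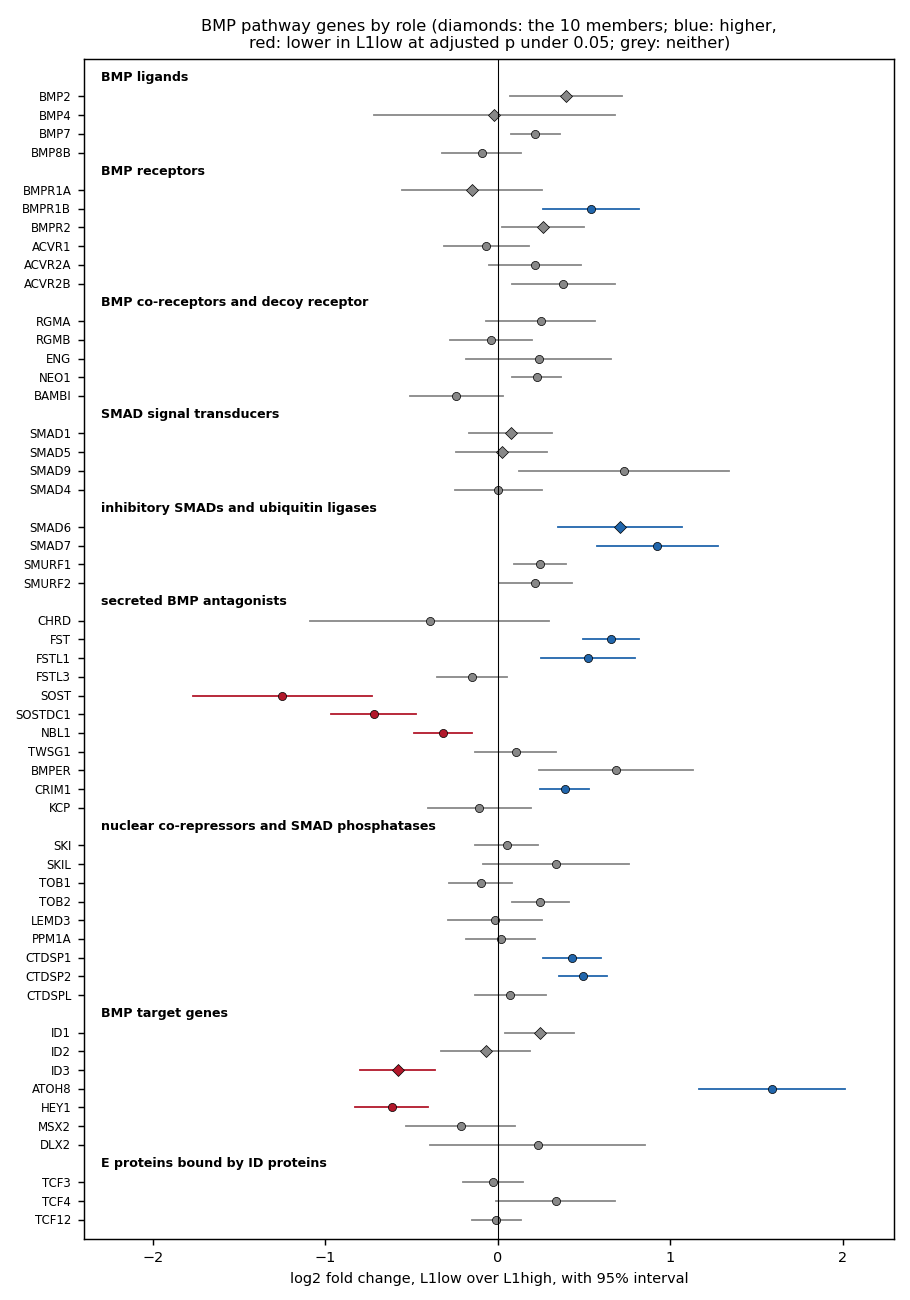
Log2 fold changes of L1low against L1high with 95% intervals for the BMP pathway genes tested, grouped by role, with called genes marked. ATOH8 lies farthest to the right at 1.59 and SOST farthest to the left at -1.25.

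The secreted antagonists, which hold ligands away from receptors, moved in both directions. Of 18 listed, 11 were tested, with 3 higher, 3 lower and 5 not called, and a median log2 fold change of -0.11. The called share was 54.5%, beside 7.95% of all genes tested. FST, or follistatin, which binds activins and some BMPs, had 40.8, 37.4 and 40.0 CPM in L1high and 61.7, 61.3 and 63.1 CPM in L1low, a log2 fold change of 0.66 (SE 0.07, adjusted p = 0.000241). FSTL1, a follistatin-like secreted protein, rose from 8.06 ± 0.70 to 11.6 ± 0.99 CPM (adjusted p = 0.0245), a call that was lost without L1high replicate 1 (adjusted p = 0.119), L1high replicate 3 (0.0573) or L1low replicate 2 (0.132). The antagonists called lower were led by SOST, or sclerostin, which is best known as a WNT antagonist. SOST had 2.59, 2.58 and 3.11 CPM in L1high and 1.27, 0.891 and 1.30 CPM in L1low, a log2 fold change of -1.25 (SE 0.24, adjusted p = 0.00792) on 16 to 55 counts a library. Its relative SOSTDC1, which binds BMPs and WNT co-receptors, fell from 12.02 ± 0.33 to 7.30 ± 0.16 CPM, a log2 fold change of -0.72 (adjusted p = 0.00223). CRIM1, a membrane protein that binds BMPs, was higher (log2 fold change 0.39, adjusted p = 0.00364), and NBL1, a secreted antagonist of the DAN family, was lower (log2 fold change -0.32, adjusted p = 0.0268, called under 9 of 14 alternatives). These 2 genes were named after their values were seen. CRIM1 overlaps FEZ2 on the other strand, and NBL1 shares its span with MICOS10 and a readthrough gene, so both counts are uncertain.

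Of 9 nuclear co-repressors and SMAD phosphatases, 2 were called, or 22.2%, beside 7.95% of all genes tested. CTDSP1 and CTDSP2, small phosphatases that act on SMAD proteins and on RNA polymerase II, were higher in L1low, at 104.5 against 77.6 CPM (log2 fold change 0.43, adjusted p = 0.00526) and at 131.8 against 93.6 CPM (0.49, adjusted p = 0.000676). TOB1, a repressor of BMP-driven transcription and the most abundant of this list per length, had a log2 fold change of -0.10 (adjusted p = 0.518). With edgeR none of the 3 E proteins that ID proteins bind was called (0 had an unadjusted p under 0.05, and DESeq2 called 0), and the most abundant of them per length, TCF3, had a log2 fold change of -0.03 (adjusted p = 0.88).

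The BMP target genes did not move as a block. Of 14 listed, 11 were tested, with SMAD6, SMAD7 and ATOH8 higher, ID3 and HEY1 lower, and a median log2 fold change of 0.23. The called share was 45.5%, beside 7.95% of all genes tested. ATOH8, a helix-loop-helix transcription factor, had 1.51, 1.66 and 1.89 CPM in L1high and 5.78, 4.40 and 4.97 CPM in L1low, a 3.01-fold difference (log2 fold change 1.59, SE 0.19, adjusted p = 0.000393). HEY1, a helix-loop-helix repressor that is also a Notch target, had 64.3, 67.8 and 59.2 CPM in L1high and 40.0, 47.4 and 37.7 CPM in L1low (log2 fold change -0.61, SE 0.10, adjusted p = 0.00249). For both genes the groups were apart, ATOH8 in the direction of SMAD6 and HEY1 in that of ID3. SMAD6 and SMAD7 stand in 2 lists, as inhibitory SMADs and as targets, so the counts by list share genes.

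**Figure D4:**
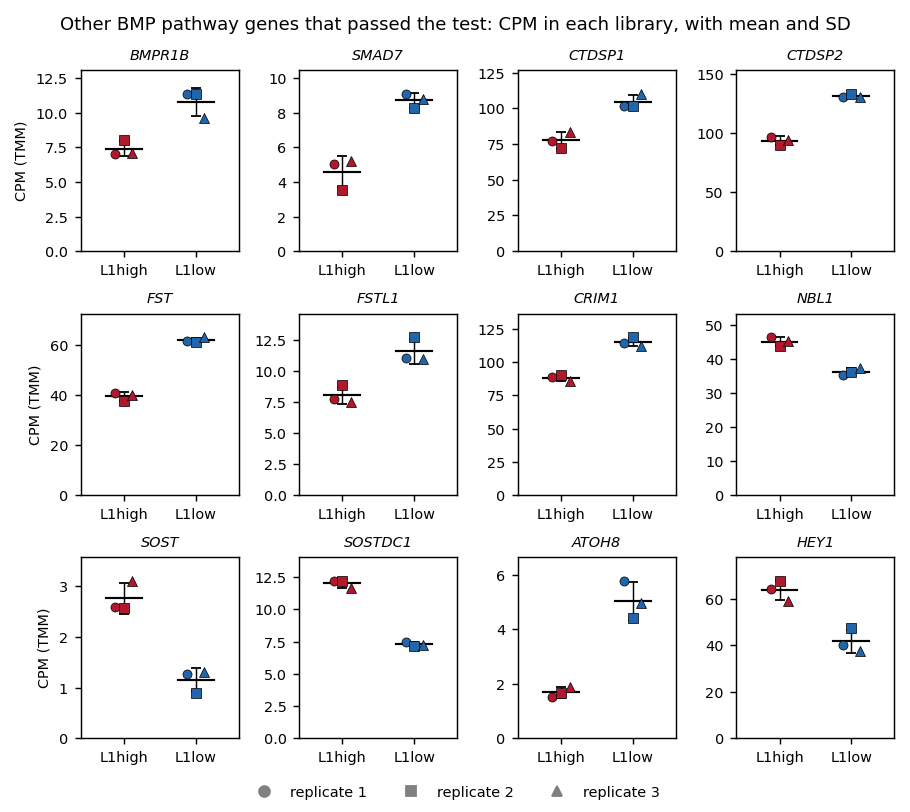
CPM in each library of the 12 called pathway genes that are not members, 1 panel a gene, with bars for the mean and SD of 3 libraries. All 12 panels show L1low and L1high libraries that do not overlap, from SOST at 0.891 to 3.11 CPM to CTDSP2 at 89.7 to 133.5 CPM. Because these genes were picked by a test between the same groups, the lack of overlap is no separate evidence. Of all genes tested, 28.8% did not overlap.

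Some of the genes that cell handling can set off were higher in L1low, though handling itself was not measured. The summed level of 10 sorting stress and immediate early genes was 8268 to 8890 CPM in L1high and 10188 to 10923 CPM in L1low. Of the 10, 5 were called, beside 7.95% of all genes tested. All 5 were higher: FOS, FOSB, EGR1, ATF3 and IER2. FOSB and ATF3 were called under all 14 alternatives. The other calls were lost without L1high replicate 1 or L1low replicate 2 (adjusted p = 0.12 and 0.178 for FOS, 0.0561 and 0.078 for EGR1, 0.0822 and 0.149 for IER2). They were also lost without L1high replicate 2 (0.0713 for FOS, 0.0656 for IER2), L1low replicate 1 (0.0514 for FOS) or L1low replicate 3 (0.0643 for IER2). JUN, JUNB, DUSP1 and the heat shock genes of the list, HSPA1A and HSPA1B, were not called. The part of these genes in the ID1, ID3, SMAD6 and SMAD7 values was not tested. The fibroblast and stellate sum, which is almost all LUM, was 79.9 to 90.8 CPM in L1high and 131 to 151 CPM in L1low, and the immune and endothelial sum was 19.7 to 20.7 and 23.2 to 24.5 CPM. KRT19 was higher and EPCAM lower in L1low (log2 fold changes 0.63 and -0.30, adjusted p = 0.000136 and 0.0496). The EPCAM call was lost without L1high replicate 1 (adjusted p = 0.165) or 2 (0.114), or L1low replicate 1 (0.0746), 2 (0.182) or 3 (0.131), and was kept without L1high replicate 3. The part of these markers in the values of the members was not tested.

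For the 2 called members the most similar genes were found by Pearson's r of log2 CPM over the 6 libraries, among the 12712 genes whose mean log2 CPM reached 3. PSMB1, a proteasome subunit, and MCM6, a subunit of the replicative helicase, came closest to ID3 (r = 0.996 and 0.995). ENSG00000269968 and BRF2, a subunit of an RNA polymerase III initiation factor, came closest to SMAD6 (r = 0.999 and 0.997). With 6 libraries in 2 groups, many genes reach such values: 201 genes had an r over 0.95 with ID3 and 308 with SMAD6. The 4 genes had smaller differences than the members they resemble, with log2 fold changes of -0.09 and -0.26 beside ID3 and 0.13 and 0.26 beside SMAD6.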

How the data were processed

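Total RNA of the sorted cells was made into stranded mRNA libraries and sequenced in paired-end reads. The authors aligned the reads to GRCh38 with BWA and counted them with featureCounts on Ensembl release 94, and the deposited values are raw counts per gene, with all 6 libraries in 1 table. Per the labels, the processing notes name hg38, GRCh38.p13, featureCounts and DESeq2. Tool versions and the strand setting are not given in the sources used here. All 19469 deposited genes exceeded 1 CPM in at least 2 libraries, so lower genes were not analysed here.

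Names, coordinates and exon lengths came from GENCODE release 44 (19344 identifiers matched). Promoters and start sites came from RefSeq on GRCh38, and upstream bases from the GRCh38 genome. L1low was compared with L1high over all 6 libraries in R 4.3.3 with edgeR 4.0.16 (filterByExpr, which left 19467 genes, TMM factors, quasi-likelihood test, Benjamini-Hochberg adjustment, adjusted p under 0.05). SEs were obtained by dividing the size of the fold change (log2) by the square root of F, and log2 CPM used a prior count of 2. DESeq2 1.42.0 was an alternative. The authors' own gene table left out L1high replicate 3 with no stated reason, and the comparison without that library is among the alternatives. Of 200 genes that were shifted by 1 (log2) among 19466 in simulated counts, 183 were recovered, among 193 calls. The simulation gave all genes the same dispersion and drew each library independently. Its shift was larger than the change of any member (SMAD6 had the largest, 0.71), so recovery of changes that small was not tested. The closest replicate pair had a chi-square of 3.66 per degree of freedom, so no library was a repeat of another. The common biological coefficient of variation was 0.0926.

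All 10 members were named with their values. Of each pathway list, called genes were named (where over 4 were called, the 4 with the largest change) and the gene with the highest level per length. For each called member the 2 most similar genes were given. Members, lists and tests were chosen with earlier results of these data known.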

Additional observations from a re-analysis of the deposited data

How the results depend on the processing

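The comparison was repeated under 14 alternatives: 3 other scalings, 2 other filters, DESeq2, edgeR's exact test, a replicate block, and each of the 6 libraries left out. Of 657 recomputed log2 fold changes of single genes, 585 had the same sign and the same call, 45 lost a call, 9 gained one and 18 changed sign. The median log2 fold change of all genes stayed within 0.1 of 0 under all of them. The filter switched off tests nothing, because the deposited table had lost its low genes already. Leaving out 1 library gave 627 (without L1low replicate 2) to 1473 (without L1high replicate 3) called genes against 1548, and 674 without L1high replicate 1. It gave 1 to 2 called members, the lower value without L1high replicate 1 or 2 or L1low replicate 2 or 3. Without L1low replicate 1 the count stayed at 2, but SMAD6 was lost (adjusted p = 0.0506) and ID1 was called (0.0251). The pathway count was 10 to 14 with a library left out and 17 with edgeR's exact test. The cause of these changes in count was not tested.

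With the replicate number as a block, 2363 genes were called (1220 higher, 1143 lower), with 3 members, BMP2 added (log2 fold change 0.40, adjusted p = 0.049992), and 18 pathway genes. Deviations of same-numbered libraries correlated at 0.0747, 0.0907 and 0.208 over all 19467 genes, each library best with its own number there. Over the 12712 genes whose mean log2 CPM reached 3 they correlated at 0.184, 0.116 and 0.428, but L1high replicate 2 was closer to L1low replicate 1 (0.215). The labels give the numbers no meaning, so whether they pair the libraries is not settled, and the unblocked fit was kept as the main one.

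Changes of sign fell on genes that were not called. Leaving out 1 library gave log2 fold changes of -0.1997 to 0.3081 for BMP4 (0.0082 with the block), -0.1455 to 0.0374 for ID2, -0.3078 to 0.0393 for BMPR1A, -0.0717 to 0.1366 for SMAD5, -0.0856 to 0.0313 for TCF3, -0.0529 to 0.1245 for FURIN, -0.0617 to 0.1513 for GDF9 and -0.115 to 0.0653 for GDF11. DESeq2 gave BMP4 no adjusted p. Depth limits BMP4 most among the members, at 14 to 36 counts a library.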

Other observations

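Genes beside the pathway lists were looked up after the values of these data were seen, and are given as values without an explanation. Of 4 proteases that cut BMP and related precursors, PCSK5 was called, at 32.3, 29.9 and 32.2 CPM in L1high and 43.9, 44.3 and 44.05 CPM in L1low, a log2 fold change of 0.49 (edgeR adjusted p = 0.00296) that was called under all 14 alternatives. FURIN (log2 fold change 0.04, adjusted p = 0.821), PCSK6 (-0.19, adjusted p = 0.162) and BMP1 (0.08, adjusted p = 0.582) were not called, although the PCSK6 libraries of the 2 populations did not overlap.

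Of 4 other ligands of the TGF-beta superfamily, GDF15, a secreted protein that rises in stressed cells, was lower in L1low. It had 15.04, 14.1 and 15.4 CPM in L1high and 7.76, 10.8 and 9.94 CPM in L1low (log2 fold change -0.64, adjusted p = 0.0122), and the call was lost without L1high replicate 1 (adjusted p = 0.0635). INHBB, a subunit of activin B and inhibin B, was higher (log2 fold change 0.55, adjusted p = 0.0346) and was called under 8 of 14 alternatives, with adjusted p-values from 0.00838 to 0.155. GDF9 and GDF11 had log2 fold changes of 0.04 and -0.01 and were not called.

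HEY1 was set beside its relatives. HEYL was lower in L1low (8.08 ± 0.62 and 5.58 ± 0.65 CPM, SD, n = 3, log2 fold change -0.54, adjusted p = 0.0387) and was called under 8 of 14 alternatives. HEY2 had a log2 fold change of -0.57 and an adjusted p of 0.0633, with libraries that did not overlap, while HES1, another Notch target, had a log2 fold change of -0.06 and an adjusted p of 0.639.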
